A study of Rattus norvegicus with 4 samples.

Results

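The genes described here encode the kinases, ubiquitin ligases and partner proteins that set how many epithelial sodium channels lie at the cell surface. They were chosen by name: the SGK kinase genes Sgk1, Sgk2 and Sgk3, the ubiquitin ligase genes Nedd4 and Nedd4l, the deubiquitinase gene Usp2, the scaffold gene Cnksr3 and the 14-3-3 genes Ywhab, Ywhae and Sfn. Of these 10 genes, 8 had an array row that carries their symbol and no other, each of them 1 row among the 19403 rows of the arrays. Sgk3 and Sfn had no such row and were not analysed here. The cells were surface colonocytes, shaken off the distal colon of 12-week-old Wistar rats. All 4 rats were adrenalectomized, kept for 4 days and given 0.9% NaCl to drink. In the aldosterone group, 2 rats received 50 µg of the hormone per 100 g body weight under the skin and a minipump set to 10 µg per kg and hour for 2 h, and their colons were then shaken for 40 min with 100 nM aldosterone. In the vehicle group, 2 rats received the injection, the minipump and the shaking without the hormone. Each rat gave 1 array, and values are log2 expression values, in which a difference of 1 is a doubling.

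In the absorptive epithelium of the distal colon and of the kidney's collecting duct, aldosterone raises sodium uptake through the epithelial sodium channel. The ligase Nedd4-2, the product of Nedd4l, binds the tails of the channel subunits and marks the channel for removal from the surface. The kinase SGK1 phosphorylates Nedd4-2, 14-3-3 proteins bind the phosphorylated ligase, and more channels stay at the surface. Adrenalectomy removes the source of aldosterone and of corticosterone, and Sgk1 is known as a target gene of the receptors of both.

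Among the 8 measured genes, Sgk1 had the largest difference: it was 3.87-fold higher in the aldosterone rats, and the differences of the other 7 ran from -0.27 to 0.42 on the log2 scale. The ligase genes Nedd4l and Nedd4 differed by 0.038 and 0.11. Ywhae was 1.34-fold higher and Usp2 1.21-fold lower. The groups did not overlap in Sgk1, Ywhae, Nedd4 and Usp2. Of all rows, 16.7% were higher and 11.1% lower without overlap. By limma with 1 prior variance for all rows, here called the constant prior, 0 of the 8 reached the adjusted threshold of 0.05, beside 0% of all rows. When the prior was allowed to vary with expression level, here called the intensity trend, Sgk1 passed and the other 7 did not, against a background of 0.108% of all rows. With 2 rats a group, an exact permutation test of 1 gene cannot give a two-sided p below 0.333.

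**Figure D1:**
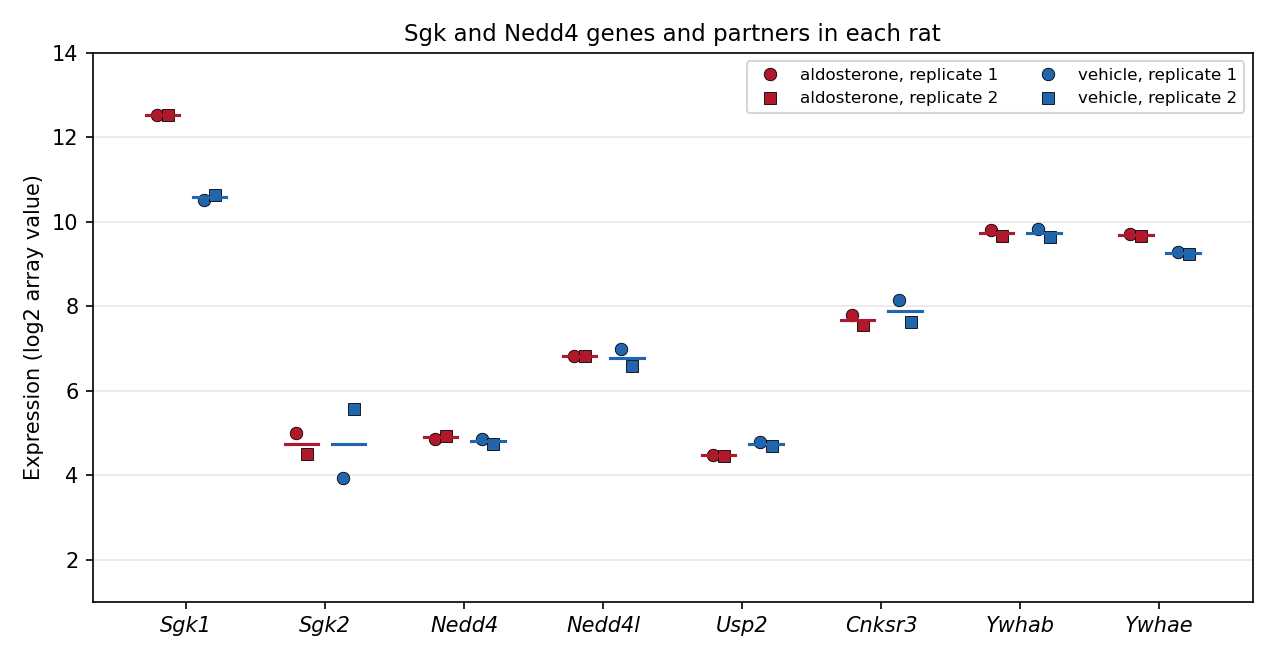
Log2 expression values (vertical axis) of the 8 measured genes in each rat. Red symbols are aldosterone rats and blue symbols vehicle rats, circles are replicate 1 and squares replicate 2, and horizontal bars are group means. Sgk1 is the gene with the wide gap between groups, at 12.54 and 12.52 with aldosterone and 10.51 and 10.64 with vehicle. Sgk2 has the widest spread within a group, at 3.93 and 5.57 with vehicle.

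Genes listed as surface colonocyte markers were at high levels on the arrays. The list, of which 11 genes were measured, includes genes expressed throughout the colonic epithelium. Over the 11, the mean level was 10.73 and 10.72 in the aldosterone rats and 10.46 and 10.53 in the vehicle rats. Their summed linear value was 27730 and 27829 in the aldosterone rats and 24193 and 25612 in the vehicle rats, without overlap. This sum was led by Slc26a3, at 12.75 and 12.61 in the aldosterone rats, against 11.96 and 12.30 in the vehicle rats. The markers differed among themselves: 8 were higher and 3 lower, with a median log2 difference of 0.087, from -0.19 for Krt19, whose groups did not overlap, to 0.55 for Slc26a3 and 1.33 for Hsd11b2, itself a gene of aldosterone target cells. Without Hsd11b2 the mean level was 11.25 and 11.26 in the aldosterone rats and 11.12 and 11.13 in the vehicle rats. Row means under 3, near the lowest values on these arrays, were found in 65.0% of all rows. Among the lists of other cells, 4 of 5 crypt, 5 of 5 enteroendocrine and 6 of 9 immune markers had such means. So did 4 of 6 stromal or muscle and 3 of 4 nerve or glia markers. The immune and stromal or muscle shares were thus near that of all rows. Mcpt1, a mast cell gene of the immune list, was at 6.17 and 2.46 with aldosterone and 5.29 and 2.90 with vehicle. Its higher value in both groups was in replicate 1. The summed linear value of the immune list was 118 and 65.8 with aldosterone and 89.1 and 50.2 with vehicle. Goblet cell markers (3 measured) summed to 985 and 3158 in the aldosterone rats and to 2505 and 1972 in the vehicle rats, with overlap, a sum led by Tff3. Zg16, a goblet cell secretory gene, was at 6.39 and 8.06 in the aldosterone rats, against 5.14 and 4.45 in the vehicle rats, a log2 difference of 2.43 without overlap in the direction of Sgk1 (adjusted p = 0.891 in limma with the constant prior and 0.134 with the trend). The part of surface, goblet and immune markers in the difference of Sgk1 was not tested. In bulk samples fewer cells of a type and less RNA per cell cannot be told apart.

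Sgk1 encodes the serum- and glucocorticoid-induced kinase that phosphorylates Nedd4-2. Its level (row 7045121) was 12.54 and 12.52 in the aldosterone rats, against 10.51 and 10.64 in the vehicle rats. Both aldosterone rats lay above both vehicle rats, and the gap between the groups, 1.88, was wide beside the distance between replicates, 0.0175 in the aldosterone rats and 0.13 in the vehicle rats. The log2 difference was 1.95 ± 0.11 (SE, n = 2 each), with a 95% interval from 1.66 to 2.24, or 3.16-fold to 4.74-fold. Of all 19403 rows, 23 had a larger difference in either direction (0.119%). The adjusted p in limma was 0.332 with the constant prior and 0.000558 with the intensity trend. The adjusted p stayed above 0.05 in every other fit without the trend, from 0.0512 with rows below the median left out to 1.00 with no moderation. It lay below 0.05 in all 6 fits with the trend, the highest being 0.0222 without vehicle replicate 1. The size itself moved little, from 1.89 without vehicle replicate 1 to 2.02 without vehicle replicate 2.

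RefSeq lists 3 starts for rat Sgk1 on the minus strand of chromosome 1 in the GRCr8 assembly. The 250 bases before each start are shown because Sgk1 is the gene with the large difference, in transcript order from the outermost start inward and with TATAAA in capitals:
Sgk1 start 1, chr1:24807232-24807481, minus strand: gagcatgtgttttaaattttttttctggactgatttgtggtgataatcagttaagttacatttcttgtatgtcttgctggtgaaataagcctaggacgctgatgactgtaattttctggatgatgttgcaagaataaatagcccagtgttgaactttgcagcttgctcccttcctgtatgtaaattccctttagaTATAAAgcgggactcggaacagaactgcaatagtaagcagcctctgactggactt
Sgk1 start 2, chr1:24805571-24805820, minus strand: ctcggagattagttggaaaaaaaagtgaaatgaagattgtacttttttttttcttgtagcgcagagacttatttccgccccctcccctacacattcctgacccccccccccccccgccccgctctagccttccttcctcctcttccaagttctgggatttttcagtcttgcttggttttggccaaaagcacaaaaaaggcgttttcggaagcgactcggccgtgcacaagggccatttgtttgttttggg
Sgk1 start 3, chr1:24804832-24805081, minus strand: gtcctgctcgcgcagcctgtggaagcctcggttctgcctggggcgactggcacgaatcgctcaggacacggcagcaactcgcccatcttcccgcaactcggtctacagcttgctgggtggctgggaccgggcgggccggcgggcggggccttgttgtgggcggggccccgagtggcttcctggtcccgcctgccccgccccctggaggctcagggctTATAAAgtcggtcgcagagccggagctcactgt
The innermost window is rich in G and C (69.6% of bases, against 39.2% in the outermost and 49.6% in the middle one). TATAAA, the letters of a TATA box, lies 33 bases before the innermost start and 55 bases before the outermost, and is missing from the middle window. It occurs on either strand in 14.2% of all 33469 promoter windows of the RefSeq table. These windows reach from 250 bases before to 50 after a start. The full element bound by dimers of corticosteroid receptors, AGAACA followed after 3 further bases by TGTTCT, and its single arm AGAACA were searched on both strands. Every full element also holds the arm. Neither occurs in the 3 Sgk1 windows or in the 7 windows of Cnksr3, Ywhab, Sfn, Usp2, Nedd4, Ywhae and Nedd4l. Of all windows, 0.0149% hold the full element and 20.7% the arm, so that absence of the full element here says little. Elements outside the windows or with other letters were not searched. The array row gives 1 value for the gene, so that the starts were not told apart.

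Sgk2, which encodes a related kinase with a similar catalytic domain, showed no common direction. Its level (row 7235074) was 4.99 and 4.50 in the aldosterone rats, against 3.93 and 5.57 in the vehicle rats. The aldosterone rats lay between the vehicle rats. The means were alike, 4.75 ± 0.34 in aldosterone rats and 4.75 ± 1.16 in vehicle rats (SD, n = 2 each), but the interval of the log2 difference ran from -1.66 to 1.66. A difference of up to 3.15-fold in either direction was thus not excluded by these arrays, and the value was 0.82 without vehicle replicate 2 and -0.82 without vehicle replicate 1.

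Nedd4l, the gene of the ligase Nedd4-2, is the target of SGK1 in this pathway. Its level (row 7171365) was 6.83 and 6.82 in the aldosterone rats, against 6.99 and 6.59 in the vehicle rats. The groups overlapped, and the difference of 0.038 had an interval from -0.43 to 0.50. Its direction turned to -0.020 with each array centred on its median and to -0.16 without vehicle replicate 2. Nedd4, the founding gene of this ligase family, was at 4.87 and 4.94 in the aldosterone rats, against 4.85 and 4.74 in the vehicle rats (row 7337872). Its groups did not overlap, but the gap of 0.015 was narrower than the distance between the replicates of either group. The interval of the Nedd4 difference ran from -0.19 to 0.40, and the difference itself was 0.050 without vehicle replicate 2 and 0.16 without vehicle replicate 1. For both ligase genes a change as large as that of Sgk1 lay outside the interval.

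Usp2 encodes a deubiquitinase that takes ubiquitin off the channel, and a short form of it is known to be induced by aldosterone in mouse kidney. The array row gives 1 value for the gene in rat colonocytes, so that the short form was not told apart. The level of Usp2 (row 7335410) was 4.48 and 4.46 in the aldosterone rats, against 4.78 and 4.70 in the vehicle rats. Both aldosterone rats were lower, by a gap of 0.22. The log2 difference was -0.27 with an interval from -0.55 to 0.0048 with the constant prior and from -0.90 to 0.36 with the intensity trend. The adjusted p was 1.00 in limma with either prior. The difference ran from -0.33 to -0.22 over the 6 alternatives that can move it, the 2 normalizations and the 4 arrays left out in turn. Cnksr3 encodes a scaffold protein that gathers SGK1, Nedd4-2 and the channel and that is known as an aldosterone-induced gene in mouse kidney cells. It was at 7.79 and 7.55 in the aldosterone rats, against 8.15 and 7.62 in the vehicle rats (row 7045969). The groups overlapped, and the interval of the difference of -0.21 ran from -0.83 to 0.40. The Cnksr3 difference was 0.049 without vehicle replicate 1 and -0.48 without vehicle replicate 2.

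The 14-3-3 proteins are dimeric adaptors that bind phosphorylated serine or threonine, and the beta and epsilon forms bind phosphorylated Nedd4-2. Ywhae, the epsilon gene (row 7069778), was at 9.72 and 9.66 in the aldosterone rats, against 9.29 and 9.24 in the vehicle rats. Both aldosterone rats were higher, and the gap of 0.37 exceeded the distance between replicates, 0.054 with aldosterone and 0.055 with vehicle. The log2 difference was 0.42 ± 0.099 (SE, n = 2 each), with an interval from 0.15 to 0.69 and an adjusted p of 0.853 in limma with the constant prior. With the intensity trend the interval ran from -0.089 to 0.93. A larger difference in either direction was found in 7.99% of all rows. Ywhab, the beta gene (row 7235185), was at 9.80 and 9.65 in the aldosterone rats, against 9.83 and 9.65 in the vehicle rats. The groups of Ywhab overlapped, with arrays 0.15 apart with aldosterone and 0.18 with vehicle, and its difference of -0.013 had an interval from -0.36 to 0.33. Its direction was not stable, at 0.077 when vehicle replicate 1 was left out and 0.059 without aldosterone replicate 2.

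The other 4 listed 14-3-3 genes were all measured, and 0 of the 4 passed the adjusted threshold with either prior. Ywhag, the gamma gene, was at 5.63 and 5.56 in the aldosterone rats, against 6.29 and 6.23 in the vehicle rats. Both aldosterone rats were lower. The log2 difference was -0.66, with an interval from -0.94 to -0.39 with the constant prior (adjusted p = 0.711 in limma). With the intensity trend the interval ran from -1.33 to -8.1e-05. The direction of Ywhag is thus opposite to that of Ywhae, and neither interval holds 0 with the constant prior. Ywhaz, the zeta gene, was at 10.37 and 10.37 in the aldosterone rats, against 10.19 and 10.23 in the vehicle rats, with an interval from -0.11 to 0.42. Ywhaq, the theta gene, was at 6.10 and 5.84 in the aldosterone rats, against 6.13 and 6.08 in the vehicle rats. These 2 genes had intervals that hold 0.

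**Figure D2:**
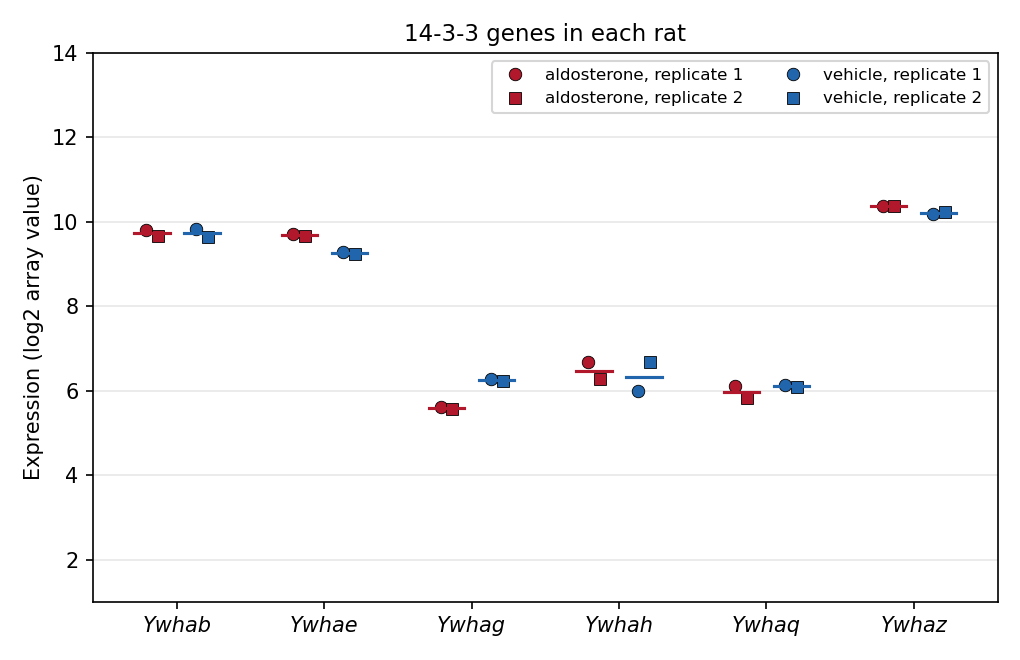
Log2 expression values (vertical axis) of 6 genes of 14-3-3 proteins in each rat, with aldosterone rats in red and vehicle rats in blue, circles for replicate 1, squares for replicate 2 and bars for group means. Ywhae lies higher in the aldosterone rats (9.72 and 9.66 against 9.29 and 9.24) and Ywhag lower (5.63 and 5.56 against 6.29 and 6.23).

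Read against all rows, the 8 genes held differences of both signs. The log2 difference was positive in 4 and negative in 4, with a median of 0.018 beside 0.024 over all rows. Over rows whose mean was at least 4 the median was -0.041, with 2145 rows positive and 2670 negative. The median size of the difference was 0.16, beside 0.094 over all rows and 0.20 over the 4815 rows whose mean was at least 4, as it was for all 8. The groups did not overlap in 3 genes that were higher (Sgk1, Ywhae and Nedd4; 16.7% of all rows) and in 1 that was lower (Usp2; 11.1% of all rows). Among rows whose mean was at least 4, the shares were 13.4% higher and 18.7% lower. A fold of 1.5 or more was reached by 1 of the 8, Sgk1, beside 4.08% of all rows and 11.8% of rows with a mean of 4 or more. An unadjusted p of 0.05 was met by 2 of the 8, Sgk1 and Ywhae, beside 4.53% of all rows and 10.9% of rows whose mean was at least 4, with the constant prior. With the intensity trend it was met by 1 of the 8, Sgk1, beside 4.67% and 7.37%.

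**Figure D3:**
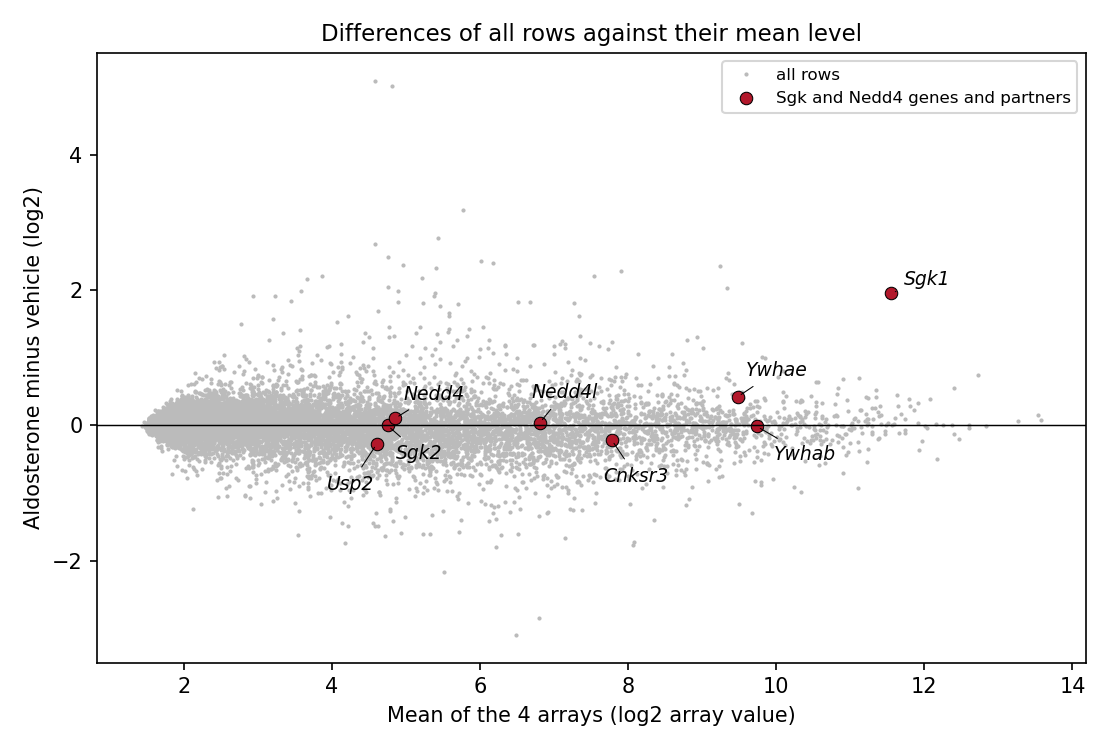
Difference of aldosterone minus vehicle (log2, vertical axis) against the mean of the 4 arrays (log2 value, horizontal axis) for all 19403 rows in grey, with the 8 genes in red. Sgk1 lies at 1.95, outside the bulk of rows of its level, and the other 7 lie between -0.27 and 0.42.

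The pathway around these genes was followed in lists of 42 further genes, of which 29 were measured. None of the 29 passed with the constant prior and 2 passed with the intensity trend, Tsc22d3 and Scnn1g. The background over all rows was 0% and 0.108%. An unadjusted p of 0.05 was met by 5 of the 29 with either prior, beside 4.53% of all rows with the constant prior and 4.67% with the trend. Among rows with a mean of 4 or more, as most of the 29 had, the shares were 10.9% and 7.37%. Foxo1 was among the 5 only with the constant prior and Scnn1b only with the trend. The difference was positive in 13 and negative in 16, with a median of -0.010. The groups did not overlap in 6 that were higher and 3 that were lower, beside 16.7% and 11.1% of all rows. Among rows with a mean of 4 or more these shares were 13.4% and 18.7%.

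Of the proteins that activate SGK1 or govern its turnover, 9 of 11 listed genes were measured and 0 passed. Rffl, which encodes a RING-type ubiquitin ligase, was at 7.84 and 7.60 in the aldosterone rats, against 6.942 and 6.998 in the vehicle rats. Both aldosterone rats were higher, and the log2 difference was 0.75 with an interval from 0.40 to 1.10 (adjusted p = 0.711 in limma with the constant prior and 0.933 with the intensity trend). Rictor, the gene of the subunit that defines the kinase complex mTORC2, which phosphorylates SGK1, was at 3.76 and 3.68 in the aldosterone rats, against 4.54 and 3.93 in the vehicle rats. Both aldosterone rats lay lower, but the interval ran from -1.17 to 0.14, and the difference was -0.21 without vehicle replicate 1 and -0.82 without vehicle replicate 2. Stub1, the gene of the chaperone-linked ligase CHIP, was at 5.78 and 6.15 in the aldosterone rats, against 6.52 and 6.10 in the vehicle rats, and its groups overlapped.

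Of the complex partners and substrates of SGK1, 7 of 11 listed genes were measured. Tsc22d3, which encodes GILZ, a partner of SGK1 in the complex that holds back Nedd4-2, was at 10.39 and 10.44 in the aldosterone rats, against 7.93 and 8.20 in the vehicle rats. With the intensity trend it passed (adjusted p = 0.00258 in limma), with the constant prior it did not (adjusted p = 0.332). The call with the trend was lost without vehicle replicate 1 (adjusted p = 0.0706). Foxo1, a forkhead transcription factor gene whose protein SGK and Akt kinases phosphorylate, was at 6.70 and 6.65 in the aldosterone rats, against 7.06 and 7.05 in the vehicle rats. The groups of Foxo1 did not overlap. Its difference of -0.38 had an interval from -0.65 to -0.11 with the constant prior (adjusted p = 0.891 in limma). With the intensity trend the Foxo1 interval ran from -1.03 to 0.27 and held 0. Ndrg2, of the family of NDRG substrates of SGK1, was at 9.50 and 9.22 in the aldosterone rats, against 9.23 and 9.03 in the vehicle rats, with groups that overlapped.

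Other ligases, adaptors and deubiquitinases of this pathway had differences from -0.15 to 0.24 on the log2 scale. Of 9 listed Nedd4-family ligases and adaptors 4 were measured, with differences from -0.11 to 0.24, and 0 passed. Itch, a ligase gene of the Nedd4 family, was at 7.60 and 7.38 in the aldosterone rats, against 7.32 and 7.16 in the vehicle rats. Its groups did not overlap, and its interval ran from -0.13 to 0.61. Ndfip1, an adaptor that activates such ligases, was at 7.71 and 7.92 in the aldosterone rats, against 8.01 and 7.85 in the vehicle rats. The ligase gene Hecw2 had a mean below 3. The deubiquitinase genes Usp8 and Usp10, measured of 4 listed, had groups that overlapped and differences of -0.15 and -0.13, whose sign depended on single arrays.

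The channel itself gives the frame for these values. Scnn1g, the gamma subunit gene, was at 6.65 and 7.61 in the aldosterone rats, against 2.05 and 2.03 in the vehicle rats, where it lay near the floor (adjusted p = 6.95e-05 in limma with the intensity trend and 0.402 with the constant prior). Scnn1b, the beta subunit gene, was at 4.06 and 5.98 in the aldosterone rats, against 3.44 and 3.37 in the vehicle rats. It passed with neither prior (adjusted p = 0.539 in limma with the trend). Its log2 difference of 1.61 ran from 0.65 to 2.57 over the 4 arrays left out in turn. Scnn1a, the alpha subunit gene, was at 8.94 and 8.68 in the aldosterone rats, against 8.75 and 8.64 in the vehicle rats, and its groups overlapped. The 2 aldosterone rats thus lay close together in Sgk1, 0.0175 apart, and further apart in Scnn1b and Scnn1g.

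**Figure D4:**
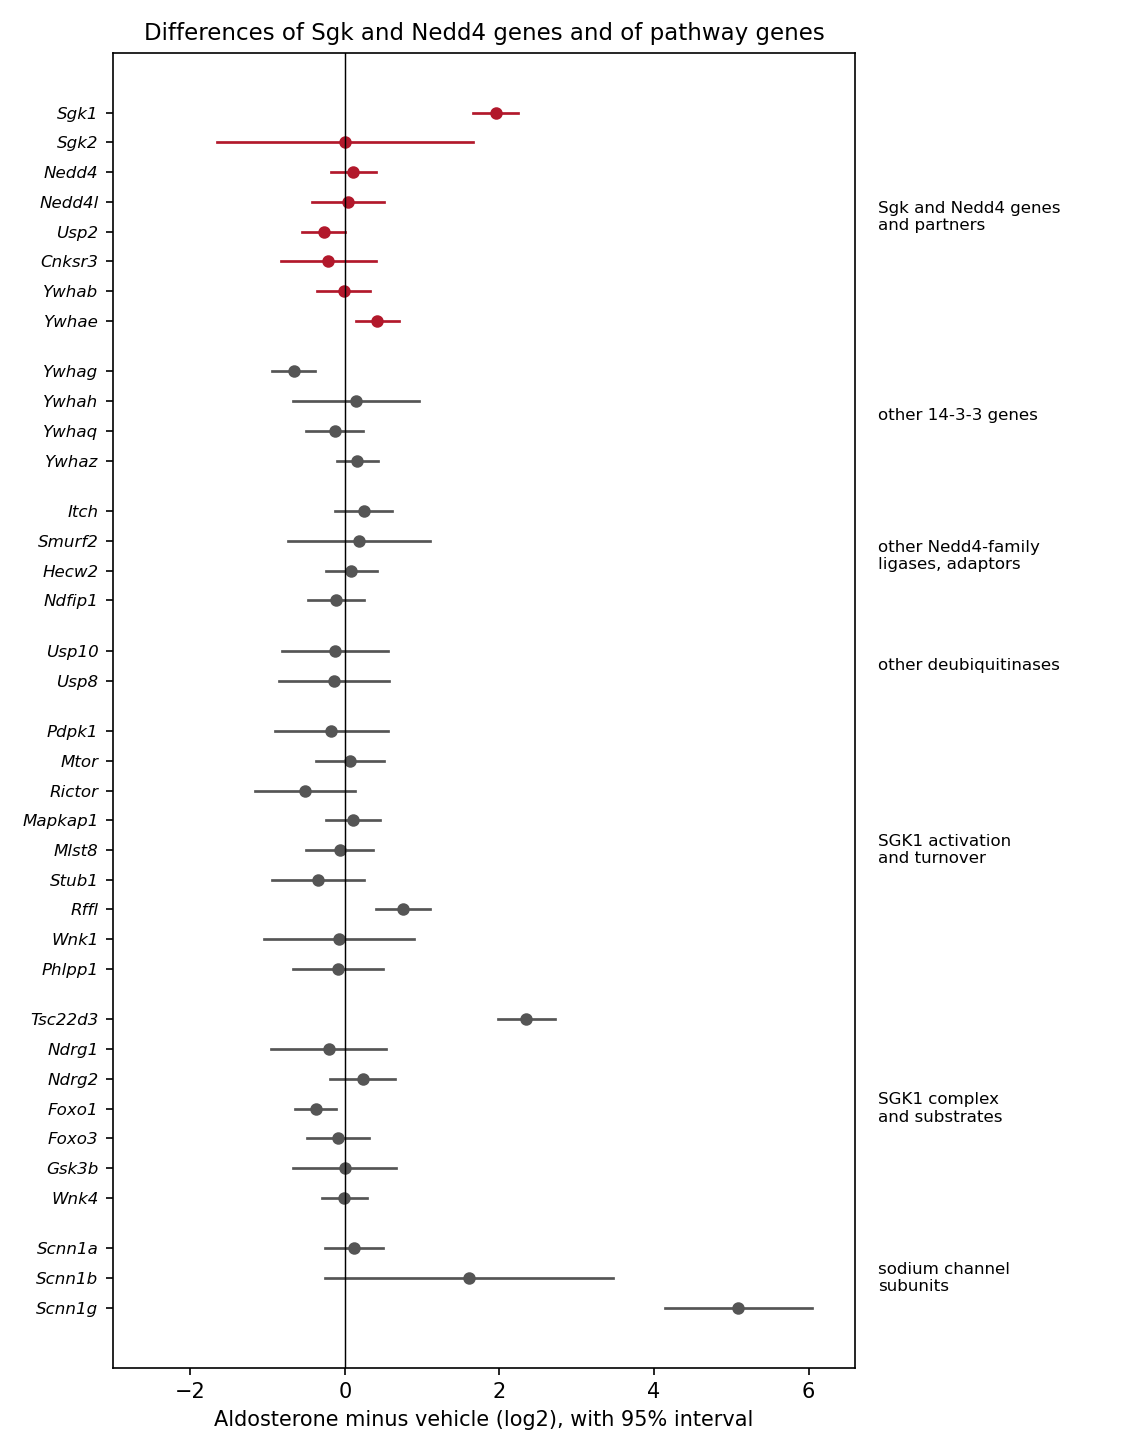
Difference of aldosterone minus vehicle (log2, horizontal axis) with its 95% interval from limma with the constant prior, for the 8 genes in red and 29 pathway genes in grey, ordered by list. Intervals clear of 0 are those of Sgk1, Ywhae, Ywhag, Rffl, Tsc22d3, Foxo1 and Scnn1g, none of which passed after adjustment with this prior.

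The genes whose values ran most like those of Sgk1 were sought among 2908 other genes with a mean of 5 or more. Likeness was the root mean square distance between deviations from each gene's own mean over the 4 arrays, on the log2 scale. The 5 closest were Cyp27a1 (distance 0.15), a mitochondrial sterol hydroxylase gene, Noct (0.17), the gene of nocturnin, Tsc22d3 (0.21), Slc12a2 (0.22), the gene of the cotransporter NKCC1, and Mcoln2 (0.24), a lysosomal cation channel gene. Their folds ran from 3.77 for Slc12a2 to 5.09 for Tsc22d3, beside 3.87 for Sgk1. With 4 arrays this likeness describes little more than the size of the difference and the spread within groups. Of the other 7 genes, Cnksr3, Nedd4l, Ywhab and Ywhae were candidates and were not among the 5, while Sgk2, Nedd4 and Usp2 had means below 5 and were not compared.

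**Figure D5:**
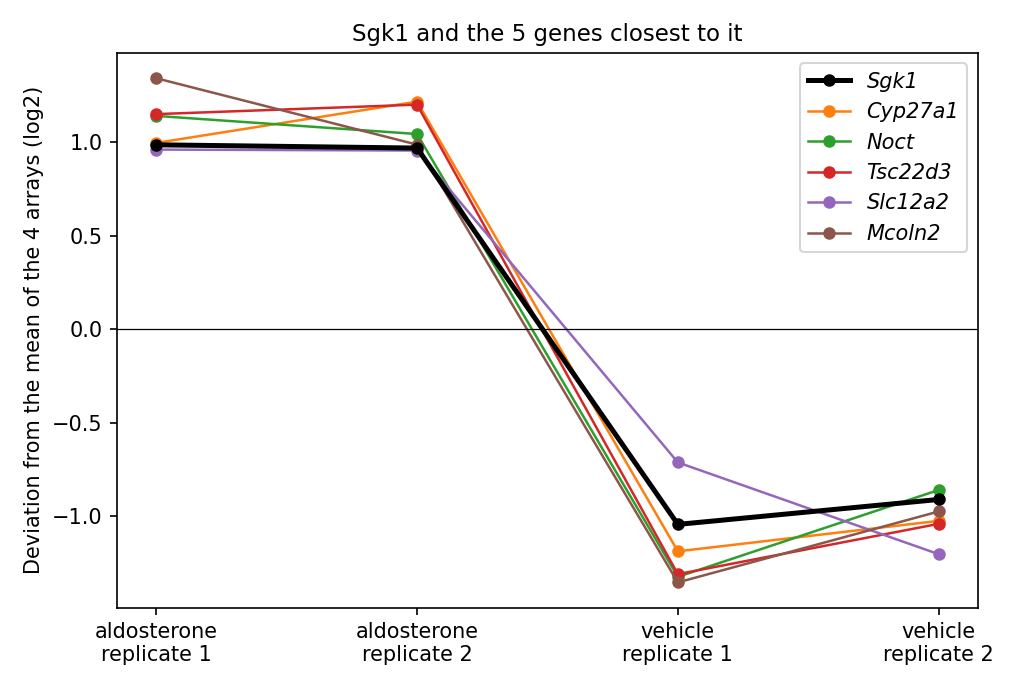
Deviation of each array from the gene's own mean over the 4 arrays (log2, vertical axis), for the 4 arrays along the horizontal axis. Sgk1 is the thick black line and the 5 genes closest to it are coloured. All 6 genes lie above 0 in both aldosterone rats and below 0 in both vehicle rats.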

How the data were processed

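Surface colonocytes of 4 adrenalectomized rats were hybridized to Affymetrix rat exon arrays after ribosomal RNA reduction, 1 array per rat, 2 per group. The values analysed are the log2 values deposited by the authors, 1 per row (transcript cluster) and array. The submitters' processing notes name Partek, RMA and Affymetrix Expression Console, without versions, order or roles. The log2 scale was read from the range, 1.36 to 13.7. The array medians were 2.33 and 2.44 (aldosterone) and 2.22 and 2.43 (vehicle), and the mean of 65.0% of rows lay below 3. Neither a genome build nor detection calls were given in the sources used. Precision is limited by the number of arrays.

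Rows were named from the platform annotation, and 13327 of 19403 had 1 symbol. Entrez IDs were checked against RefSeq (GRCr8), where 0 symbols differed and 95 IDs were absent. Each of the 8 genes had 1 row. RefSeq promoter windows were found for 8 of the 10 genes named by the rule, not for Sgk2 and Sgk3.

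Treatment was the single term of a linear model fitted to every row in limma 3.58.1 (R 4.3.3, two-sided moderated test), with a constant prior variance and Benjamini-Hochberg adjustment over all rows. The threshold was 0.05. The fits were run on simulated data whose noise followed the fitted intensity trend, which cannot test whether that trend holds for these rows. Intervals are 95% intervals. Tables and plots used Python 3.11.15, pandas 2.3.3 and matplotlib 3.10.9. Named are the genes chosen by the rule, up to 3 of each pathway list with the smallest unadjusted p, the channel subunit genes, Tsc22d3 and the 5 genes closest to Sgk1. Krt19, Slc26a3, Hsd11b2, Tff3, Zg16 and Mcpt1 were named from the marker lists after their values were seen. The genes, lists and alternatives were chosen with earlier results of these data known. Alternatives were quantile normalization, median centring, 3 filters on low rows, the replicate block, the intensity trend, a robust prior, no moderation and leaving out each array.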

Additional observations from a re-analysis of the deposited data

How the results depend on the processing

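Of the 8 genes, Sgk1, Nedd4, Usp2 and Ywhae kept their direction in the 6 alternatives that can move a difference, 2 normalizations and 4 arrays left out in turn. The other alternatives change only the test or repeat these values. With the constant prior, 0 of 19403 rows and 0 of the 8 genes passed in limma, and quantile normalization, median centring, the robust prior, no moderation, the replicate block and each array left out gave 0 as well. An unadjusted p of 0.05 was met by 879 rows. Leaving out rows below the median or below a mean of 3 gave 1 row each, Scnn1g. The intensity trend called 21 rows, and 1 of the 8 genes, Sgk1. It called 6 rows with the replicate block, Sgk1 among them (adjusted p = 0.00361). Without single arrays it called 7 to 142 rows, of which 7 without vehicle replicate 1, 8 without vehicle replicate 2, 137 without aldosterone replicate 1 and 142 without aldosterone replicate 2, and 1 of the 8 genes each time, Sgk1. Of the 21 rows, 2 and 3 were among those called without vehicle replicates 1 and 2. A group left with 1 array was taken to have the spread of the other. The labels do not say that equal replicate numbers mark a pair. Over all rows, the differences between replicates 1 and 2 correlated between the groups at r = 0.15. Over rows whose mean was at least 4, r was 0.093. Replicate 1 lay above replicate 2 in both groups in 5 of the 8 genes, beside 18.5% of all rows and 40.1% of rows whose mean was at least 4. The block left each gene's difference as it was.

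The direction of 7 named genes turned with single arrays left out, under either prior, and the cause was not tested. Over the 4 arrays left out in turn, the differences ran from -0.82 to 0.82 for Sgk2, -0.16 to 0.24 for Nedd4l, -0.48 to 0.049 for Cnksr3, -0.10 to 0.077 for Ywhab, -0.46 to 0.16 for Usp8, -0.43 to 0.18 for Usp10 and -0.011 to 0.25 for Scnn1a. Smaller turned values were 0.0031 for Usp10 without aldosterone replicate 1, and 0.059 for Ywhab, 0.0049 for Usp8 and 0.24 for Sgk2 without aldosterone replicate 2. Centring each array on its median gave -0.020 for Nedd4l. These ranges limit what 2 rats a group can show for differences of this size. The 4815 rows at a level of at least 4 averaged 6.33 and 6.30 on the aldosterone arrays, against 6.44 and 6.27 on the vehicle arrays. Vehicle replicate 1 was thus the highest array there, although its median over all rows, 2.22, was the lowest. Cnksr3, Ywhab, Usp8 and Usp10 turned positive without this array, while Sgk2, Nedd4l and Scnn1a turned without other arrays. Whether the level of vehicle replicate 1 turned them was not tested.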
